A study of Mus musculus with 6 samples.

Results

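The genes described here are 10 members of the Bcl2 family, which sets the threshold for the mitochondrial pathway of cell death. They were taken by symbol from the 46517 gene identifiers of the count tables. The rule uses no measured value, but the genes were chosen with earlier results of these data known: Bcl2, Bcl2l1, Mcl1, Bax, Bak1, Bcl2l11, Bbc3, Pmaip1, Bmf and Bid. All 10 were found, and all 10 had enough counts to be among the 15862 genes tested. The mRNA of 6 primary cultures was sequenced. They held renal tubular epithelial cells (RTECs), the cells that line the kidney tubules, isolated from wild-type FvB mice aged 4 to 6 weeks per the labels. The study's methods give a younger age range and male animals. The cultures were grown in medium with 10% serum and 20 ng/ml epidermal growth factor and then kept without serum for 24 h. The 3 TGF-β1 cultures next received 50 ng/ml transforming growth factor-β1, a cytokine that drives kidney fibrosis, for 24 h, and the 3 cultures labeled as control (CTL) did not. The labels do not say whether the cultures of a group came from separate animals, so p-values measure the spread between these cultures, which may be technical at least between replicates 1 and 3.

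As background, family members fall into 3 roles. Bcl2, Bcl-xL (encoded by Bcl2l1) and Mcl1 are anti-apoptotic proteins that hold the others in check. Bax and Bak (Bak1) are the effectors that open pores in the outer mitochondrial membrane and release cytochrome c. The BH3-only proteins Bim (Bcl2l11), Puma (Bbc3), Noxa (Pmaip1), Bmf and Bid sense stress, bind the anti-apoptotic proteins, and in some cases activate the effectors directly. Tubular epithelial cells die by this pathway in acute kidney injury, and TGF-β1 is known to cause death or growth arrest in several types of epithelium. Much of the family's control, such as cleavage of Bid, phosphorylation and turnover of Mcl1 protein, is not seen in mRNA counts. The counts also add up all transcripts of a gene, so the long and short forms of Bcl2l1 and Mcl1, which have opposite effects on survival, could not be told apart.

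The libraries held 28313080 to 34183497 counts assigned to genes, and 3 counts corresponded to 0.089 to 0.103 CPM, the counts scaled to equal library size. The 10 genes had between 777 and 13681 counts in every library. The first principal component of all genes (54.8% of the variance) separated the groups, and the second (30.4%) separated the replicate 2 cultures from the rest. In both replicate 2 cultures the summed level of Y-linked genes was 142 to 151 CPM, against 0.061 to 0.172 CPM in the other 4 libraries. The levels of those 4 libraries are at odds with the male animals that the study's methods give. Replicate 2 also had the lowest epithelial Epcam (63.3 and 53.5 CPM against 163 to 288 CPM in the other 4). Krt8 was lowest there too (198 and 303 against 551 to 918 CPM), and Col1a1 was highest (1465 and 1835 against 506 to 809 CPM). Not every tubule or fibroblast marker went that way. The fibroblast marker Postn was lowest in replicate 2 (331 and 404 against 456 to 934 CPM). Within CTL, the tubule markers Pax8 (215 CPM) and Lrp2 (74.2 CPM) were highest in replicate 2. Within TGF-β1 they were lowest there (113 and 28.9 CPM). Because same-numbered cultures deviated together, each gene was also fitted with the replicate number as a block, and that value is given where it changes the call. Among markers of kidney tubule epithelium, Aqp2 was at 0 to 5 counts, and the summed level of the 11 markers was 1139 to 2706 CPM in CTL and 950 to 2228 CPM in TGF-β1, with Krt8 and Krt18 the largest parts except in CTL replicate 2. Of the 10 tubule markers tested, 3 fell and 0 rose with TGF-β1: Cdh16 (log2 fold change -1.50, adjusted p = 0.00922), Lrp2 (-0.93, adjusted p = 0.0165) and Pax8 (-0.77, adjusted p = 0.00436, all edgeR), and 7 fell with the replicate block. Their part in the changes of the Bcl2 family genes was not tested. The 7 fibroblast markers summed to 1298 to 2491 CPM in CTL and 1662 to 3321 CPM in TGF-β1. With the replicate block, 3 of the 6 tested rose (Col1a1, Col1a2 and Postn) and 2 fell (Pdgfrb and Dcn), against 0 called without it (edgeR). The 6 endothelial markers summed to at most 2.68 CPM and the 6 leukocyte markers to at most 5.97 CPM. The podocyte sum of 410.0 to 577 CPM in CTL and 325 to 381 CPM in TGF-β1 came from Podxl and Synpo, with Nphs1 near 0. In edgeR, Podxl and Synpo fell with the replicate block and were not called without it. In bulk cultures, fewer cells of a type and less RNA per cell cannot be told apart.

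After TGF-β1, 2 of the 10 genes rose and 2 fell. Bcl2l11 and Pmaip1, both of the BH3-only class, were higher by 1.91- and 1.87-fold, and the anti-apoptotic Bcl2 and the BH3-only Bbc3 were lower, at 0.675 and 0.771 times the CTL level (edgeR quasi-likelihood test, adjusted p under 0.05, adjusted over all genes tested). Of all genes tested, 5.00% were called higher and 6.69% lower, 11.7% in all. With the replicate block, 4 of the 10 genes rose (Bak1 and Bmf in addition) and 5 fell (Bcl2l1, Mcl1 and Bid in addition), while that fit called 15.1% of all genes higher and 19.1% lower, 34.2% in all. The median log2 fold change of the 10 genes was -0.02, with a range of -0.57 to 0.94, and that of all genes tested was -0.003. In 7 of the 10 genes the levels of the groups did not overlap, 3 being higher and 4 lower with TGF-β1. The same held for 17.2% and 18.0% of all genes tested, 35.1% in all. The calls went in both directions within the family, and the members are given by role.

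**Figure D1:**
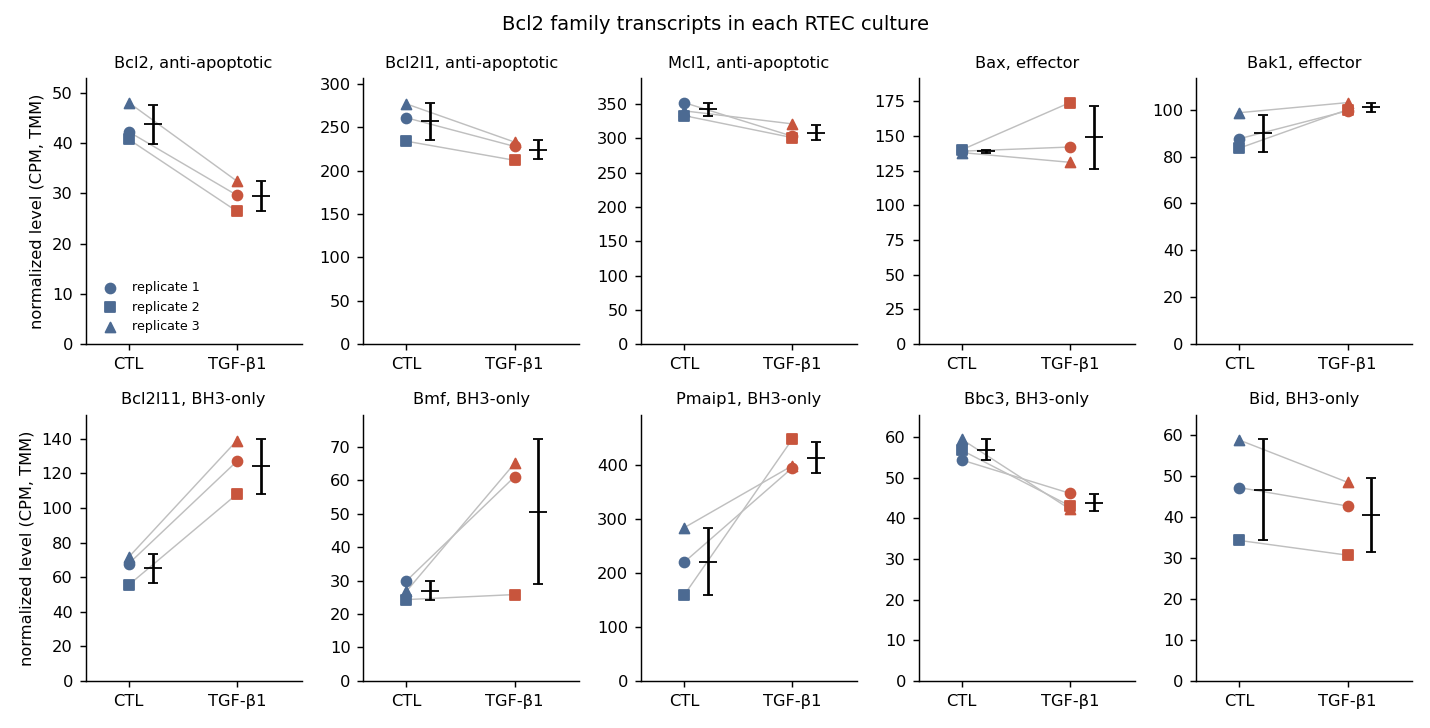
TMM-normalized level in CPM (y axis, from 0, with its own scale for each gene) of the 10 Bcl2 family genes in the 3 CTL and 3 TGF-β1 cultures. Points are cultures, lines join cultures of the same replicate number, and bars show the mean and SD. The groups of Bcl2l11 and Pmaip1 part upwards and those of Bcl2 and Bbc3 downwards, while replicate 2 of Bmf stays near the CTL level.

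Among the BH3-only genes, Bcl2l11 encodes Bim, which binds all of the main anti-apoptotic proteins and can also activate Bax and Bak. It lies at chr2:128126038-128162547 on the plus strand (GRCm38). Bcl2l11, Bmf and Pmaip1 were the BH3-only genes with the largest fold changes, though Bmf was not called without the replicate block. Bcl2 and Bbc3 were the members called lower without the block. The 250 bases before a RefSeq transcription start are therefore shown for Bcl2l11, Bmf, Bcl2 and Bbc3 (RefSeq, GRCm38.p6, 5′ to 3′ on the strand of the gene). The windows are chr2:128125788-128126037 (plus strand) for Bcl2l11, chr2:118549687-118549936 (minus strand) for Bmf, chr1:106714291-106714540 (minus strand) for Bcl2 and chr7:16309333-16309582 (plus strand) for Bbc3. Capitals mark the forkhead word GTAAACA, the Smad word CAGAC, the CCAAT box CCAAT and the GC box GGGCGG, read on both strands.
Bcl2l11: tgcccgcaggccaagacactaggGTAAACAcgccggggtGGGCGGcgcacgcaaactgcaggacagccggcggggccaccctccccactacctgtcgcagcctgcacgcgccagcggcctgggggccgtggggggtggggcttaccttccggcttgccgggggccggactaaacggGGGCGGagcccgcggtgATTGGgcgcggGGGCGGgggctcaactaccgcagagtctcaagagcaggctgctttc
Bmf: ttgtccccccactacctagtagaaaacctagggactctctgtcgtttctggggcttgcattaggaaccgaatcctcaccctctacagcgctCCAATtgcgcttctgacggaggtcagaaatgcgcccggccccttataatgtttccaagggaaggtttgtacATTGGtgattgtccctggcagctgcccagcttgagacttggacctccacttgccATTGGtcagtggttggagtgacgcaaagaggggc
Bcl2: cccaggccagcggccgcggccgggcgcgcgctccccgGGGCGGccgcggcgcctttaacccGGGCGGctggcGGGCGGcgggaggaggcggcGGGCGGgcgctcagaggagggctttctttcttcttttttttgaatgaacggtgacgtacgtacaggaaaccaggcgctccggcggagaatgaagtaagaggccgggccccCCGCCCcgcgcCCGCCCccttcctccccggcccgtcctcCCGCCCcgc
Bbc3: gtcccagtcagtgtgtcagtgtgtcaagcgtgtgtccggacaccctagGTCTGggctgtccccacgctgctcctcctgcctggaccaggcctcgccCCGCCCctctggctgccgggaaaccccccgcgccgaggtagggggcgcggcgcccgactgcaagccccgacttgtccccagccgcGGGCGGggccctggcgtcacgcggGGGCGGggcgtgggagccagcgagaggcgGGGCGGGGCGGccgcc

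These words were searched because FoxO factors are known to act on Bcl2l11 and Bbc3, Smad proteins carry the TGF-β1 signal to DNA, and CCAAT and GC boxes are common in promoters. RefSeq windows were searched for 9 of the 10 genes, 16 windows in all. Pmaip1 was left out of the 16 windows and is named without a sequence. The forkhead word was found in 2 of the 16 windows, the one printed for Bcl2l11 and another of Bbc3, and in 3.17% of the 32851 windows of all genes. The Smad word was found in 6 of the 16 and in 42.2% of all windows. The AP-1 word TGACTCA was found in 0 of the 16 and in 4.46% of all windows. The CCAAT box was found in 5 of the 16 and in 33.8% of all, and the GC box in 9 of the 16 and in 32.7% of all. The printed Bcl2 window held 7 GC boxes and none of the other words, and the printed Bmf window held 3 CCAAT boxes. For each gene the most upstream window is printed. Windows not printed held 3 Smad words for Bmf, 1 for Bcl2l11 and 2 for Bbc3. In the printed Bbc3 window, 2 of its 5 GC boxes overlap by a base. A word found here describes the letters only and is not a measured binding site.

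The level of Bcl2l11 was 67.8, 55.5 and 71.6 CPM in CTL replicates 1 to 3 and 127, 108 and 139 CPM in TGF-β1 replicates 1 to 3. Every TGF-β1 culture was above every CTL culture, and replicate 2 was the lowest of its group in both groups. The mean went from 65.0 ± 8.4 to 124 ± 15.7 CPM (SD, n = 3), a log2 fold change of 0.94 (SE 0.13, adjusted p = 0.0117, edgeR). Taken pair by pair, cultures of the same number gave log2 ratios of 0.90, 0.95 and 0.95, so the pairs differed among themselves by much less than the cultures of a group did. The fit without CTL replicate 1 gave an adjusted p of 0.0602 and that without TGF-β1 replicate 1 gave 0.0586 (edgeR), with fold changes of 0.97 and 0.93 on the log2 scale.

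Pmaip1 encodes Noxa, which binds Mcl1 in preference to Bcl2 and promotes its breakdown. Its level was 220.0, 159 and 284 CPM in CTL and 395, 448 and 399 CPM in TGF-β1. The CTL cultures were spread widely, with replicate 2 the lowest, while the TGF-β1 cultures lay closer together and replicate 2 was the highest there. The mean went from 221 ± 62.5 to 414 ± 29.3 CPM (SD, n = 3), a log2 fold change of 0.90 (SE 0.21, adjusted p = 0.0433, edgeR). The pairs gave log2 ratios of 0.84, 1.49 and 0.49, all in the same direction but of unequal size. Of the 6 fits that drop a single culture, 4 lost the call: dropping CTL replicate 1 gave an adjusted p of 0.16, and dropping TGF-β1 replicate 1, 2 or 3 gave 0.124, 0.108 or 0.0987 (edgeR).

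Bmf, which is held at the cytoskeleton and freed by stress or loss of attachment, behaved differently in replicate 2. Its level was 29.9, 24.3 and 26.8 CPM in CTL and 61.0, 25.8 and 65.0 CPM in TGF-β1. Replicates 1 and 3 of the TGF-β1 group were above every CTL culture, and replicate 2 lay inside the CTL range. The mean was 27.0 ± 2.78 CPM in CTL and 50.6 ± 21.6 CPM in TGF-β1 (SD, n = 3), a log2 fold change of 0.91 (SE 0.34, adjusted p = 0.148, edgeR), which did not pass the test. With the replicate block it was 0.83 (SE 0.22, adjusted p = 0.0342, edgeR). The pairs gave log2 ratios of 1.03, 0.08 and 1.28. Without both replicate 2 cultures the log2 fold change was 1.15 (SE 0.08, adjusted p = 0.00139, edgeR). Replicate 2 also differed in Epcam, Krt8, Col1a1 and Y-linked levels. The part of these differences in the values of Bmf was not tested.

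Bbc3 encodes Puma, a p53 target that binds all the anti-apoptotic members, and it moved opposite to Bcl2l11. Its level was 54.4, 56.8 and 59.5 CPM in CTL and 46.2, 43.1 and 42.3 CPM in TGF-β1 (chr7:16308393-16318205, plus strand, GRCm38). The groups did not overlap, and the spread within each group was narrow. The mean went from 56.9 ± 2.55 to 43.9 ± 2.07 CPM (SD, n = 3), a log2 fold change of -0.38 (SE 0.06, adjusted p = 0.0149, edgeR). All 3 pairs were lower, with log2 ratios of -0.24, -0.40 and -0.49. Dropping the replicate 1 culture of CTL or of TGF-β1 ended the call, with adjusted p-values of 0.0601 and 0.0538 (edgeR).

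Bid links death receptors to mitochondria after caspase-8 cuts it. Its level was 47.2, 34.3 and 58.8 CPM in CTL and 42.7, 30.7 and 48.5 CPM in TGF-β1, so the groups overlapped and replicate 2 was the lowest in both. The log2 fold change was -0.20 (SE 0.24, adjusted p = 0.642, edgeR). The pairs, however, gave log2 ratios of -0.15, -0.16 and -0.28, and with the block the log2 fold change was -0.19 (SE 0.05, adjusted p = 0.0202, edgeR). Leaving out 1 culture moved the unblocked value between -0.38 and -0.003, the latter when CTL replicate 3 was dropped. Bid shares 628 bases of exon with Bcl2l13, which lies on the opposite strand. The strand setting of the counting is not given in the sources used here, so reads of that stretch could not be told apart.

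Of the 3 anti-apoptotic genes, Bcl2 changed most. Bcl2 (chr1:106538178-106714274, minus strand) had 42.2, 40.7 and 48.0 CPM in CTL and 29.6, 26.4 and 32.4 CPM in TGF-β1. Every TGF-β1 culture was below every CTL culture. The mean went from 43.7 ± 3.87 to 29.4 ± 3.01 CPM (SD, n = 3), a log2 fold change of -0.57 (SE 0.10, adjusted p = 0.0205, edgeR), and the pairs gave -0.51, -0.63 and -0.57. Dropping CTL replicate 1 or TGF-β1 replicate 1 raised the adjusted p to 0.0861 or 0.087 (edgeR). An antisense gene, D630008O14Rik, shares 558 bases of exon with Bcl2.

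Bcl2l1 and Mcl1 were measured at far higher counts than Bcl2 and moved less. The level of Bcl2l1 was 261, 234 and 277 CPM in CTL and 228, 212 and 233 CPM in TGF-β1. The highest TGF-β1 culture lay just under the lowest CTL culture. Its log2 fold change was -0.20 (SE 0.08, adjusted p = 0.151, edgeR) without the block and -0.20 (SE 0.04, adjusted p = 0.0103, edgeR) with it. Mcl1, a short-lived protein on which many epithelial cells depend, had 352, 333 and 340.0 CPM in CTL and 303, 301 and 321 CPM in TGF-β1. Its groups did not overlap either, and the gap between them was 333 against 321 CPM. The log2 fold change of Mcl1 was -0.15 (SE 0.05, adjusted p = 0.125, edgeR) and, with the block, -0.15 (SE 0.05, adjusted p = 0.0418, edgeR). All 3 pairs were lower for both genes, between -0.25 and -0.14 for Bcl2l1 and between -0.22 and -0.08 for Mcl1.

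Neither effector passed the unblocked test. Bax had 139, 140.0 and 138 CPM in CTL and 142, 174 and 131 CPM in TGF-β1. The CTL cultures were nearly equal, and TGF-β1 replicate 2 stood above all others while replicate 3 was the lowest of the 6. The log2 fold change was 0.10 (SE 0.11, adjusted p = 0.58, edgeR), and Bax was the only one of the 10 genes that passed neither test (adjusted p = 0.381 with the block, edgeR). Without TGF-β1 replicate 2 its sign turned, to -0.03 (adjusted p = 0.769, edgeR). Bak1 had 87.6, 83.6 and 98.7 CPM in CTL and 99.5, 100.0 and 103 CPM in TGF-β1, without overlap but with a gap of less than 1 CPM. Its log2 fold change was 0.17 (SE 0.07, adjusted p = 0.177, edgeR), and with the block 0.17 (SE 0.05, adjusted p = 0.0341, edgeR). Bax shares 192 bases of exon with Gm45808 on the same strand, and Bak1 shares stretches of 437 and 177 bases with genes named Ggnbp1 on the opposite strand.

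**Figure D2:**
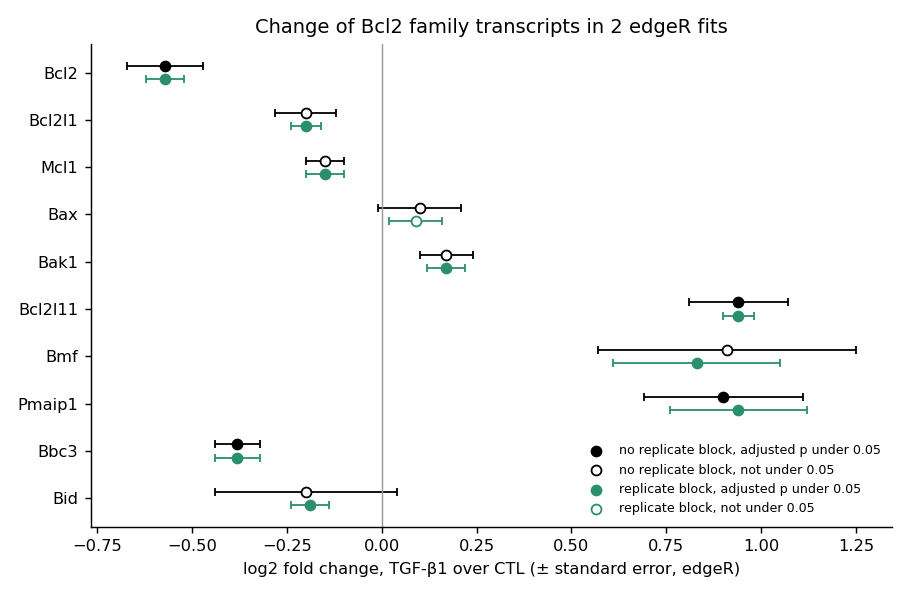
Log2 fold change of TGF-β1 over CTL (x axis) for the 10 Bcl2 family genes, from edgeR without and with the replicate block. Bars show 1 SE on each side, and filled points passed the test in that fit. The estimates of the fits differ by at most 0.08, for Bmf, while the errors of Bid and Bcl2l11 narrow from 0.24 to 0.05 and from 0.13 to 0.04.

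To compare levels between genes, CPM were divided by the length of the exons of each gene in kb, with all exons of its transcripts merged. In CTL, Mcl1 was highest at 100.0 ± 2.81 CPM per kb, followed by Bax at 88.2 ± 0.635, Pmaip1 at 80.9 ± 22.9 and Bcl2l1 at 56.1 ± 4.74 CPM per kb (SD, n = 3). Bak1 followed at 37.4, Bbc3 at 26.8, Bid at 13.2, Bcl2l11 at 8.09, Bmf at 5.14 and Bcl2 at 4.77 CPM per kb. The ranges of neighbors in this order overlapped for Bax and Pmaip1, for Pmaip1 and Bcl2l1, and for Bmf and Bcl2. Bcl2 thus had the lowest mean level per kb of the 10 genes in both groups, and it fell further to 3.22 ± 0.328 CPM per kb. With TGF-β1 the order at the top changed, with Pmaip1 highest at 152 ± 10.8 CPM per kb, above Bax at 94.5 ± 14.2 and Mcl1 at 90.2 ± 3.22 CPM per kb. Bax and Mcl1 overlapped there, as did Bcl2l11 (15.5 CPM per kb) with Bid (11.4) and Bid with Bmf (9.63). The merged exons take in every annotated transcript and were 9157 bases for Bcl2 and 8029 for Bcl2l11, the longest of the 10, so this order rests on the annotation.

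**Figure D3:**
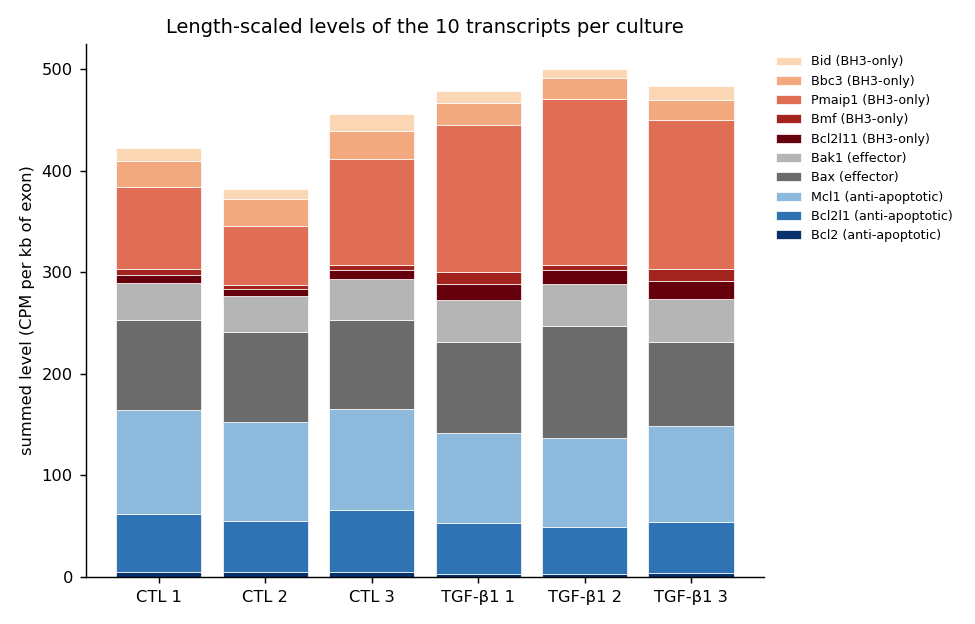
Summed level in CPM per kb of merged exon (y axis, from 0) of the 10 genes in each of the 3 CTL and 3 TGF-β1 cultures, stacked by gene, with anti-apoptotic genes in blue, effectors in gray and BH3-only genes in orange and red. The Pmaip1 segment is the one that widens most with TGF-β1, from 80.9 to 152 CPM per kb in mean, and the Bcl2 segment at the base is the thinnest or nearly so in every culture.

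Summed per kb over the 10 genes, the 3 anti-apoptotic genes made up 38.9%, 40.0% and 36.2% of the total in CTL and 29.6%, 27.4% and 30.7% in TGF-β1. The 5 BH3-only genes made up 31.6%, 27.7% and 35.6% in CTL and 43.0%, 42.2% and 43.3% in TGF-β1. The shares of these classes did not overlap between the groups. The 2 effectors made up 30.0 ± 2.1% and 28 ± 2.2% (SD, n = 3). Pmaip1 has the largest level of the BH3-only genes, so these shares follow mostly that gene.

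Because the balance of opposing members bears on survival, ratios of levels per kb were formed within each library, where the normalization between libraries cancels. The ratios are descriptions without a test. The log2 ratio of Bcl2l11 to Bcl2 was 0.87, 0.64 and 0.77 in CTL and 2.29, 2.22 and 2.29 in TGF-β1, with means of 0.76 ± 0.12 and 2.27 ± 0.04 (SD, n = 3). This was the ratio with the largest difference between the groups of the 7 formed, 1.51 on the log2 scale. Against the more abundant Bcl2l1 and Mcl1, Bcl2l11 stayed the lower transcript in every culture, with mean log2 ratios of -2.80 ± 0.07 and -3.63 ± 0.17 in CTL and of -1.66 ± 0.11 and -2.55 ± 0.14 in TGF-β1. The log2 ratio of Pmaip1 to Mcl1, its main binding partner, was -0.35, -0.74 and 0.06 in CTL and 0.71, 0.90 and 0.64 in TGF-β1. Pmaip1 therefore exceeded Mcl1 per kb in all 3 TGF-β1 cultures and in 1 of the 3 CTL cultures. In CPM not divided by length, it exceeded Mcl1 in the same 3 TGF-β1 cultures and in 0 of the 3 CTL cultures (284 against 340.0 CPM in replicate 3, the closest). The log2 ratio of Bmf to Bcl2 went in mean from 0.11 ± 0.18 to 1.47 ± 0.61, with replicate 2 at 0.77 in TGF-β1. Bax to Bcl2, a ratio often used as an index of susceptibility to death, was 4.21 ± 0.14 in CTL and 4.87 ± 0.36 in TGF-β1, a difference of 0.66 that came mainly from Bcl2. Within the BH3-only class, Bcl2l11 to Bbc3 was -1.73 ± 0.19 in CTL and -0.42 ± 0.20 in TGF-β1. None of the 7 ratios overlapped between the groups. The members were chosen with earlier results of these data known. Each pair sets a gene with a positive log2 fold change over one with a negative one, so the shared direction follows from the choice of pairs.

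**Figure D4:**
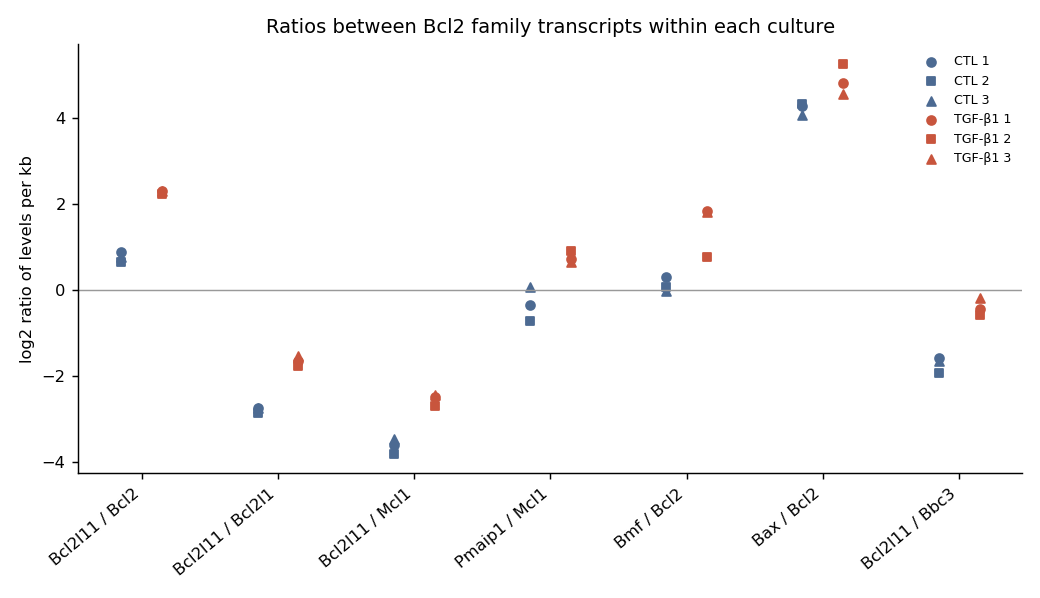
Log2 ratio of levels per kb (y axis) for 7 pairs of Bcl2 family genes within each library, 1 point a culture, with CTL in blue and TGF-β1 in red and the marker giving the replicate number. Every ratio is higher in all 3 TGF-β1 cultures than in any CTL culture, by 0.66 (Bax to Bcl2) to 1.51 (Bcl2l11 to Bcl2) in mean. Each pair sets a gene with a higher mean in TGF-β1 over one with a lower mean.

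The other genes of the family and of the pathway were read from lists of the same fit. Of 15 other Bcl2 family genes, 9 were tested and 0 were called in either direction (edgeR), 1 of them at an unadjusted p under 0.05 and 0 with DESeq2. Their median log2 fold change was -0.05. With the replicate block, Bcl2l13, a mitochondrial member with a role in mitophagy, rose (log2 fold change 0.20, adjusted p = 0.0144, edgeR) and Bik, a BH3-only gene, fell (-1.09, adjusted p = 0.000786, edgeR). Bik had 2.25 to 4.96 CPM in CTL and 0.981 to 2.22 CPM in TGF-β1, and its unblocked log2 fold change was -1.08 (adjusted p = 0.152, edgeR). Bcl2a1a, Bcl2a1b, Bcl2l10, Bcl2l14 and Bcl2l15 had at most 8 counts in any library and Bcl2a1d had 0, too few to test. The fourth anti-apoptotic gene of these cells, Bcl2l2 (Bcl-w), had 67.2 to 75.6 CPM in CTL and 71.2 to 77.8 CPM in TGF-β1 (log2 fold change 0.05, SE 0.06, adjusted p = 0.622, edgeR).

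Downstream of the mitochondria, 16 of 16 apoptosome and executioner genes were tested, with 1 called higher, 1 lower, and a median log2 fold change of -0.02. Apaf1, the scaffold of the apoptosome, had 80.0 to 85.0 CPM in CTL and 96.0 to 121 CPM in TGF-β1 and rose by 0.38 on the log2 scale (SE 0.09, adjusted p = 0.0422, edgeR). Birc5 (survivin), an inhibitor-of-apoptosis family gene expressed mainly by dividing cells, fell by 1.93 on the log2 scale (SE 0.29, adjusted p = 0.0128, edgeR), from 2.70 ± 0.602 to 0.709 ± 0.207 CPM (SD, n = 3). Of 10 genes of cycling cells, 8 also fell and 0 rose, with a median log2 fold change of -1.83 and sums of 131 to 157 CPM in CTL and 71.5 to 90.3 CPM in TGF-β1. The part of that shift in the values of Birc5 or of the 10 members was not tested. With the replicate block, 3 apoptosome and executioner genes rose and 4 fell. Casp6, an executioner caspase gene (0.18, adjusted p = 0.0477), was among the higher genes added. The inhibitors Xiap (-0.18, adjusted p = 0.017), Birc2 (-0.29, adjusted p = 0.00307) and Birc3 (-0.50, adjusted p = 0.00105) were added among the lower ones (log2 fold changes, edgeR).

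Of 12 death receptor genes, 10 were tested, 2 were called higher and 2 lower, and the median log2 fold change was 0.12. Tnfrsf21 (death receptor 6) rose from 51.7 to 53.2 CPM in CTL to 76.3 to 91.5 CPM in TGF-β1, by 0.68 on the log2 scale (SE 0.07, adjusted p = 0.00608, edgeR). Cflar, which encodes the caspase-8 inhibitor c-FLIP, rose by 0.17 (SE 0.04, adjusted p = 0.042, edgeR). Tnfrsf1a, the main TNF receptor, fell by 0.43 (SE 0.10, adjusted p = 0.0381, edgeR). Tnfsf10, which encodes the ligand TRAIL, fell by 2.58 (SE 0.45, adjusted p = 0.0202, edgeR), from 0.941 to 1.77 CPM in CTL to 0.0981 to 0.353 CPM in TGF-β1, the lowest of these being 3 counts. With the block, Casp8 (log2 fold change 0.32, adjusted p = 0.00113, edgeR) also rose and Fadd (-0.26, adjusted p = 0.0491, edgeR) also fell.

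Bbc3, Pmaip1 and Bax are known targets of p53, so its other targets were read beside them. Of 14 genes in that list 12 were tested, and 1 rose and 0 fell. Mdm2, the p53 inhibitor and target, had 338 to 346 CPM in CTL and 452 to 522 CPM in TGF-β1, a log2 fold change of 0.50 (SE 0.07, adjusted p = 0.0104, edgeR). With the block, 5 rose and 1 fell: Mdm2 with Cdkn1a (0.43, adjusted p = 0.00141), Phlda3 (0.20, adjusted p = 0.0114), Eda2r (0.19, adjusted p = 0.0107) and Trp53inp1 (0.22, adjusted p = 0.0133) were higher, and Sesn1 (-0.55, adjusted p = 0.00335) was lower (log2 fold changes, edgeR). Trp53 itself had a log2 fold change of 0.06 (SE 0.10, adjusted p = 0.75, edgeR). Pmaip1, Bbc3 and Bax thus differed in direction, with Pmaip1 higher, Bbc3 lower and Bax without a call.

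The list of other regulators of these genes and proteins held 16 genes, all tested, of which 3 rose and 0 fell, with a median of 0.03. Foxo1, a forkhead factor known to act on Bcl2l11, had 75.0 to 89.4 CPM in CTL and 101 to 112 CPM in TGF-β1 (log2 fold change 0.37, SE 0.08, adjusted p = 0.0354, edgeR). Foxo3 had a log2 fold change of 0.05 (SE 0.12, adjusted p = 0.831, edgeR). Atf4, a stress factor that can act on Pmaip1 and Bbc3, rose by 0.25 (SE 0.05, adjusted p = 0.0286, edgeR). Fbxw7, which encodes the substrate arm of a ligase for Mcl1 protein, rose by 0.47 (SE 0.05, adjusted p = 0.00436, edgeR), from 45.5 to 47.8 CPM in CTL to 63.3 to 66.5 CPM in TGF-β1. With the block, Foxo4 (-0.19, adjusted p = 0.0157) and Rela (-0.17, adjusted p = 0.0168) also fell (log2 fold changes, edgeR).

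**Figure D5:**
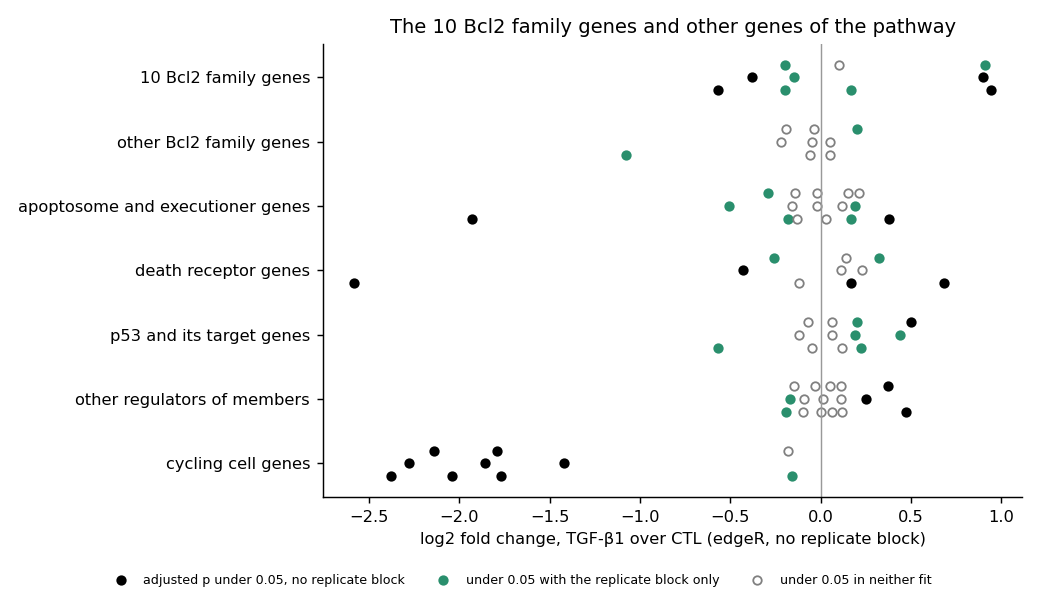
Log2 fold change of TGF-β1 over CTL (x axis, edgeR without the block) for every tested gene of each list, 1 point a gene, with black points passing the test without the block, green points passing it with the block alone and open points passing neither. Of the 7 lists plotted, all but the cycling cell genes have points on both sides of 0, and 8 of the 10 cycling cell genes fell.

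Finally, the genes whose levels followed each member most closely over the 6 libraries were listed, as Pearson's r of log2 CPM among 10901 genes with a mean of at least 5 CPM. These are descriptions, since the libraries share the treatment and the replicate number. For Bcl2l11 they were Nox4 (r = 0.998), which encodes an NADPH oxidase, Scx (0.998) and Kif26b (0.997), which went from 228 to 301, from 63.1 to 108 and from 55.7 to 181 CPM in mean. For Bcl2 they were Nectin2 (0.997), Ctsh (0.996) and Gbp9 (0.996), the last going from 17.1 to 4.96 CPM. For Bcl2l1 they were Wars2 (1.000), Relb (0.999), an NF-κB subunit, and Hspbp1 (0.997). For Pmaip1 they were Fam84b (0.998) and Ptcd3 (0.995). Bid followed Krt19 (0.999), a keratin, with Tmem30b and Hook2 (both 0.998), and Krt19 went from 131 to 91.8 CPM. Bmf followed Zfp646 (0.998), Rttn (0.998) and Dcaf5 (0.995), whose group means differed little (76.4 and 81.7 CPM for Zfp646). The closest genes of Mcl1 were Eif1ax (0.994), Gbe1 (0.993) and Tmem64 (0.988), those of Bak1 were Vta1 (0.996), Psme3 (0.995) and Slc38a1 (0.995), and those of Bbc3 were Pomt2 (0.992), Zfp13 (0.990) and D11Wsu47e (0.989).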

How the data were processed

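RNA was isolated from 3 CTL and 3 TGF-β1 RTEC cultures, and poly(A) RNA from 100 ng was sequenced with single-end 50 bp reads. Per the labels and the study's methods, the authors trimmed reads with Trim Galore, aligned them to the mouse genome (GRCm38) with STAR 2.4.1d and deposited raw counts per gene from HTSeq 0.6.1. The annotation release and strand setting are not given in the sources used here. Rows that name no gene were left out. Of the total over gene rows and these rows, reads in no feature were 4.16 to 4.93%, ambiguous reads 1.88 to 1.97% and reads not aligned uniquely 18.7 to 19.4%.

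Of 46517 identifiers, 46005 matched GENCODE M21, which gave symbols, coordinates and merged exon lengths. Counts were filtered with filterByExpr, scaled by TMM and fitted with edgeR 4.0.16 (quasi-likelihood, robust, two-sided, R 4.3.3) over all 6 cultures, and p-values were adjusted by Benjamini-Hochberg over the 15862 genes tested, with a threshold of 0.05. CPM are TMM-scaled. The scripts were tested on simulated data. Counting error alone sets the limit of 3 counts. Alternatives were the replicate block, DESeq2 1.42.0, limma-voom (limma 3.58.1), RLE or library-size scaling, other filters and leaving cultures out. The labels number the cultures 1 to 3 in each group, and the study's methods describe no pairing. The deviations from the group means correlated at 0.34, 0.684 and 0.572 for same-numbered cultures and at -0.617 to 0.215 for others over 15862 genes. The replicate number was therefore used as a block in an alternative fit. No pair of libraries agreed within sampling noise (chi-square of at least 9.02 per degree of freedom). Named genes were the 10 members, the genes of the other lists that passed with or without the block, and the 3 genes most correlated with each member called. Some genes that this rule names are not reported here. Trp53, Foxo3 and Bcl2l2 were added after their values were seen. The members and lists were chosen with earlier results of these data known. Promoter windows came from RefSeq and were searched for 5 words on both strands. Figures were drawn with matplotlib.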

Additional observations from a re-analysis of the deposited data

How the results depend on the processing

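The directions of 9 of the 10 genes held in every alternative, and only Bax turned (-0.03 to 0.19 with 1 culture left out): to -0.03 without TGF-β1 replicate 2, -0.019 without replicate 2 in both groups and -0.02 in that fit with the block. Counts of calls moved more. The replicate block gave 2388 genes higher and 3037 lower, with 4 and 5 members; scaling by library size alone gave 508 genes and 1 member higher, and testing without a filter gave 1 member higher. DESeq2 added Bmf to the 4 members called (adjusted p = 0.0316). Pmaip1 lost its call with library size alone (adjusted p = 0.0512, edgeR) and without a filter (0.113, edgeR). Leaving out 1 culture gave 109 to 516 genes higher and 186 to 807 lower, with 0 to 2 members higher and 0 to 2 lower. The fits with 0 members called, those without replicate 1 of either group, had 4 members at an unadjusted p under 0.05 (edgeR). Leaving out both cultures of a number gave 0 to 1084 genes higher and 0 to 1290 lower without the block, with 0 to 3 members higher and 0 to 2 lower. Without both replicate 1 cultures 0 genes were called (edgeR; 1938 at an unadjusted p under 0.05), and without both replicate 3 cultures 95 were higher and 190 lower with 0 members called (5 at an unadjusted p under 0.05). With the block, leaving out both cultures of a number gave 1026 to 2581 genes higher and 1649 to 3254 lower (2288 and 2718 without replicate 2), and 2 to 5 members lower (5 without replicate 2, 4 without replicate 3). Bcl2, Bcl2l11 and Bbc3 passed in 3 of these 3 fits, Pmaip1, Bcl2l1 and Mcl1 in 2, and Bax, Bak1, Bmf and Bid in 1.

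Ratios rest on exon length. Without division by length, the log2 ratios in CTL and TGF-β1 were 0.57 and 2.08 for Bcl2l11 to Bcl2, -1.99 and -0.85 for Bcl2l11 to Bcl2l1, -2.40 and -1.31 for Bcl2l11 to Mcl1, -0.69 and 0.67 for Bmf to Bcl2, 1.68 and 2.33 for Bax to Bcl2, and 0.18 and 1.5 for Bcl2l11 to Bbc3, and -0.67 and 0.42 for Pmaip1 to Mcl1. The differences between groups do not depend on length. With 3 cultures a group, small changes such as those of Mcl1 and Bak1 passed only when the replicate number was used as a block.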
